A study of Mus musculus with 12 samples.

Results

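Livers and skeletal muscles of untreated mice at 4 weeks of age were set against each other, with 3 liver samples and 3 muscle samples among the 12 samples of the series. The 6 samples were chosen by their labels alone, as offspring of dams that received normal protein (NP) without taurine. The mice were C57BL/6, and their dams were fed a diet with 20% casein, which is the control diet of the study. The other 6 samples came from offspring whose dams received the same diet and 1% taurine in the drinking water until birth (NP+tau), again with 3 livers and 3 muscles. Muscle was quadriceps, and the methods state that no pups shared a dam and that both tissues were taken from the same pup. No transgene, knockout or treatment of the pups themselves was involved. The labels do not say which liver and which muscle came from the same animal. The comparison asks which genes set the 2 tissues apart at 4 weeks of age.

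The liver makes most proteins of the blood plasma, disposes of ammonia as urea, releases glucose between meals, makes bile acids and clears drugs and other foreign compounds. These tasks are carried out mainly by hepatocytes, whose genes are switched on by a small group of transcription factors such as the hepatocyte nuclear factors. Skeletal muscle consists of long fused fibres filled with sarcomeres, in which myosin thick filaments pull on actin thin filaments when calcium is released from internal stores. Muscle fibres are fast or slow according to the myosins, troponins and calcium pumps they make, and their genes are controlled by MyoD and its relatives together with MEF2 factors. Many enzymes exist as paired isozymes, where the liver and the muscle each use a form of their own.

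Expression was measured on Affymetrix whole-genome mouse arrays. The deposited log2 values of liver and muscle had been normalised separately, so that their scales are not shared. Each sample was therefore turned into ranks. The 45037 probes that are not array controls were ordered by their value within a sample, and the percentile rank of a probe is the share of probes below it, so that 50 is the middle of the array and a rank above 99.9 lies among the brightest probes. All differences below are liver minus muscle in points of percentile rank, so that positive values are higher in liver. Ranks cannot pass 100, and a gene near the top of both tissues can differ by only a few points. For such genes the difference in log2 values after joint quantile normalisation of the 6 arrays, called the joint log2 difference here, is given as well. Probes under a rank of 46.2 in all 6 samples were left out, and 29276 probes remained. A gene is described by its brightest probe, the one with the highest mean rank over the 6 samples, unless stated otherwise. Its call is an adjusted p under 0.05 in limma over all probes tested.

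Samples of one tissue resembled each other far more than samples of the other. The Pearson correlation of percentile ranks over the 29276 probes kept was between 0.950 and 0.975 within a tissue and between 0.515 and 0.559 between tissues. Liver NP replicate 1 stood a little apart, with correlations of 0.954 and 0.950 to the other livers, which correlated with each other at 0.975. All 6 NP samples had Xist, the RNA of the inactive X chromosome, between 97.6 and 98.8, and the Y-linked gene Eif2s3y at 11.5 or below, although the methods describe each group as mixed in sex. In NP+tau, replicates 2 and 3 of both tissues had Eif2s3y at 90.1 or above, so that the 2 maternal groups also differed in apparent sex. Nothing else in the labels separates batches of samples. The p-values measure the spread between 3 mice a tissue, and that number limits their precision.

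The labelled tissues were checked on Alb and Apoa1, plasma proteins made by hepatocytes, and on Ckm and Acta1, the creatine kinase and the actin of skeletal muscle. Alb was the brightest probe of the array in every liver, at 99.999, and was 71.7, 87.8 and 64.4 in the 3 muscles. Muscle replicate 2 was the highest of these, and no muscle reached a liver value. Apoa1 was 99.997, 99.997 and 99.994 in the livers and 62.1, 59.9 and 58.4 in the muscles. Ckm was 47.3, 48.4 and 49.5 in the livers and between 99.992 and 99.997 in the muscles. Acta1 was 56.1, 55.4 and 52.5 in the livers and 99.999 in every muscle, where it took the top rank. Each of the 4 markers thus separated the tissues without overlap. The difference was 25.4 ± 5.89 points (SE, n = 3 a tissue, adjusted p = 0.0138 in limma) for Alb and 39.8 ± 1.24 points (adjusted p = 9.2e-06) for Apoa1. For Ckm it was -51.6 ± 1.02 points (adjusted p = 2.0e-06) and for Acta1 -45.3 ± 1.27 points (adjusted p = 6.4e-06). On the joint log2 scale these 4 genes differed by 8.15, 9.33, -9.97 and -9.92. In tissue samples such as these, fewer cells of a type and less RNA per cell cannot be told apart.

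**Figure D1:**
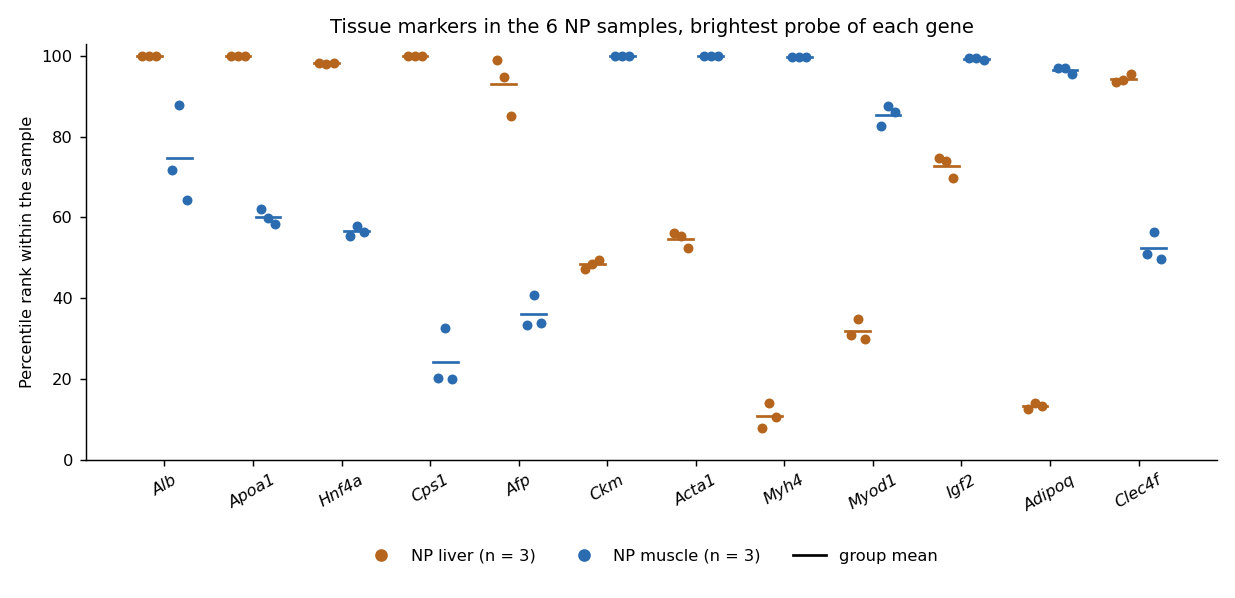
Percentile rank (y axis, 0 to 100) of 12 genes in each of the 3 NP livers and 3 NP muscles. Points are samples and short lines are group means. Alb, Apoa1, Hnf4a, Cps1, Afp and Clec4f were higher in every liver, while Ckm, Acta1, Myh4, Myod1, Igf2 and Adipoq were higher in every muscle, and the spread was widest for Alb in muscle (64.4 to 87.8) and Afp in liver (85.0 to 99.0).

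The stretches just before the start of genes at the top of each tissue are shown so that the letters behind the tissue's best known regulators can be seen. Each is the 250 bases before the RefSeq start on build GRCm38.p6, 5′ to 3′ on the strand of the gene. Capitals mark matches, on either strand, to GTTAAT (an arm of the palindrome bound by hepatocyte nuclear factor 1), TGTTTNC (the core of forkhead sites such as those of the FOXA factors), CAGCTG (the E-box read by MyoD) and TAAAAATA (the core of MEF2 sites). No match to one of these overlaps a match to another in these 8 stretches. Those of Alb, Apoa1, the fibrinogen chain Fga and the fatty acid binding protein Fabp1 stand for the liver.
Alb, chr5:90460620-90460869, plus strand: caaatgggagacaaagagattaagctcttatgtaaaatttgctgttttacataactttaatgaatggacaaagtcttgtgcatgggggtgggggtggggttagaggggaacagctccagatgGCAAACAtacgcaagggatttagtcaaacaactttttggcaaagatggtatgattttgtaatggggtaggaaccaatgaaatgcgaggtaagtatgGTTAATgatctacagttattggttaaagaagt
Apoa1, chr9:46228380-46228629, plus strand: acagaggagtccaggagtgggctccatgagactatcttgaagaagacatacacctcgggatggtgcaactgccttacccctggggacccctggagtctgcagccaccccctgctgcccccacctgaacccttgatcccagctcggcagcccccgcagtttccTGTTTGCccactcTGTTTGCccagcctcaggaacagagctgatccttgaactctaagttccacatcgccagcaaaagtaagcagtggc
Fga, chr3:83025903-83026152, plus strand: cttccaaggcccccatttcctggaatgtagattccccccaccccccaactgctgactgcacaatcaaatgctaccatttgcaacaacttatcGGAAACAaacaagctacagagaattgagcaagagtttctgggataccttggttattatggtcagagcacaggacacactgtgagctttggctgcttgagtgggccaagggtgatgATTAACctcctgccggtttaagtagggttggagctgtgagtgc
Fabp1, chr6:71199629-71199878, plus strand: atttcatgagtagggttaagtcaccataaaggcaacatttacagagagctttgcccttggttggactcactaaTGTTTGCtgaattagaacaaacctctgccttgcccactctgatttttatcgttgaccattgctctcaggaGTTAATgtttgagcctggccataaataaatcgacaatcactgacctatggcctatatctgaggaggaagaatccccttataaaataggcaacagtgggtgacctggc
The stretches of Ckm, Acta1, the fast myosin light chain Mylpf and the calcium pump Atp2a1 stand for muscle.
Ckm, chr7:19410844-19411093, plus strand: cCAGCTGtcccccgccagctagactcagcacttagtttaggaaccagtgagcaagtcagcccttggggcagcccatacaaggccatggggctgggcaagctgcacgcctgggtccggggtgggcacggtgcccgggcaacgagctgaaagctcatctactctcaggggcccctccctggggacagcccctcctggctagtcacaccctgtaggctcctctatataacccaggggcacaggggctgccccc
Acta1, chr8:123894776-123895025, minus strand: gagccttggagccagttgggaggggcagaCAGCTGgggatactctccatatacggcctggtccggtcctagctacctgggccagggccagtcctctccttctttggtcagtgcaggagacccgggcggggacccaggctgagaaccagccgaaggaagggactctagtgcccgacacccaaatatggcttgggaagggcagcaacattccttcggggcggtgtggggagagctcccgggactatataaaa
Mylpf, chr7:127211358-127211607, plus strand: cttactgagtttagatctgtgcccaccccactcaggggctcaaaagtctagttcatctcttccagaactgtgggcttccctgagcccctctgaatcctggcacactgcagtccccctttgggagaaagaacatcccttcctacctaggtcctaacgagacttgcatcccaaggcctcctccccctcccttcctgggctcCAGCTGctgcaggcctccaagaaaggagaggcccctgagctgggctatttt
Atp2a1, chr7:126463074-126463323, minus strand: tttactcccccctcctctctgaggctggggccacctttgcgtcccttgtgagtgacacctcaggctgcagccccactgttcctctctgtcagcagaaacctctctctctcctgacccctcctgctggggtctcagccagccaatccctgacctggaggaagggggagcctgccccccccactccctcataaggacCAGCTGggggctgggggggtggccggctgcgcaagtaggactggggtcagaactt

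In the liver set, GTTAAT lay 32 to 27 bases before the start in Alb, 43 to 38 in Fga and 107 to 102 in Fabp1, and TGTTTNC matched in all 4. In the muscle set, CAGCTG lay 249 to 244 bases before the start in Ckm, 221 to 216 in Acta1, 51 to 46 in Mylpf and 55 to 50 in Atp2a1, and none of the other 3 motifs matched. Over all 32851 promoters of the table, 6.43% held GTTAAT, 17.8% TGTTTNC and 2.45% TAAAAATA, and 4271 of the 32851 held CAGCTG. Of the 204 promoters found for 167 tested genes of the liver lists described below, 16.7% held GTTAAT and 27.0% TGTTTNC, while 12.3% held CAGCTG and 1.96% TAAAAATA. Of the 180 promoters found for 127 tested genes of the muscle lists, 29.4% held CAGCTG and 3.89% TAAAAATA, while 4.44% held GTTAAT and 13.9% TGTTTNC. Genes may have several starts, and these shares were not tested. A match describes letters and not a bound site.

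Across the array the tissues differed at 16550 of 29276 probes. Of the 29276 probes tested, 7926 were higher in liver (27.1%) and 8624 were higher in muscle (29.5%). Over all genes tested, called or not, the median absolute difference was 6.67 points, and the median SE over all probes tested was 1.97 points. By at least 25 points, 2065 probes (7.05%) were higher in liver and 1957 (6.68%) in muscle, and the 3 livers and 3 muscles did not overlap at 2065 and 1955 of them. Counted as genes by their brightest probe, 13968 of 18193 genes with a probe were tested. Of these, 3888 (27.8%) were higher in liver and 3883 (27.8%) in muscle. By at least 25 points the counts were 998 (7.14%) and 818 (5.86%). On the joint log2 scale 4085 genes (29.2%) were higher in liver and 4229 (30.3%) in muscle. On the deposited log2 values, with their scales unequal, 6763 probes were higher in liver and 10643 in muscle. The shares of all genes are the background for the gene lists.

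**Figure D2:**
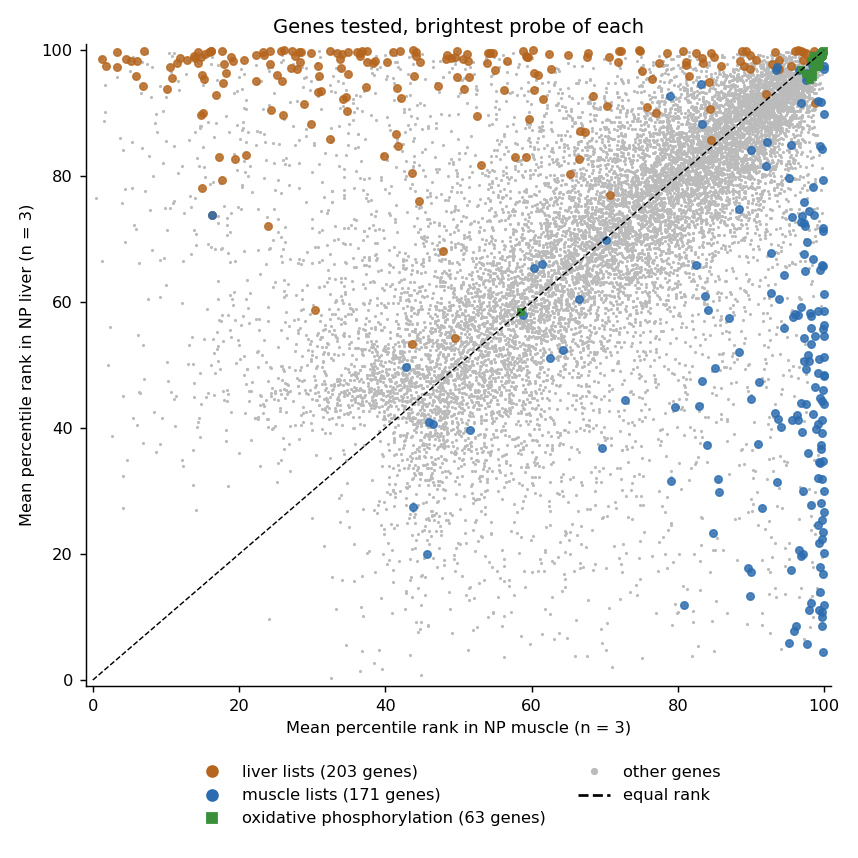
Mean percentile rank in NP muscle (x axis) against mean percentile rank in NP liver (y axis) for each gene tested, with n = 3 a tissue and the dashed line at equal rank. Most of the 203 genes of the liver lists lie above the dashed line and most of the 171 genes of the muscle lists below it, with some of each far from the edges, and the 63 oxidative phosphorylation genes sit in the upper right corner near equal rank, apart from Cox7c at 58.4 in liver and 58.6 in muscle. Prox1, which is on a list of each kind, is drawn in the muscle colour.

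With each gene taken by its widest probe, the 12 genes with the largest difference towards liver were secreted proteins and metabolic enzymes. The widest was Hsd17b13, a protein of hepatocyte lipid droplets, at 98.6, 99.0 and 98.5 in the livers and 1.24, 1.69 and 0.285 in the muscles, a difference of 97.7 ± 0.933 points (SE, adjusted p = 7.1e-07 in limma). The cytochrome P450 genes Cyp2c37, Cyp3a25, Cyp3a13 and Cyp3a11 followed with differences between 92.9 and 97.4 points. The others were Bhmt2 (methionine synthesis), F13b and Proz (coagulation), Ugt2b5 (glucuronidation), Otc (urea cycle), Elovl2 (elongation of polyunsaturated fatty acids) and Serpina7, the thyroxine carrier of plasma, between 92.8 and 96.7 points. On their brightest probes Bhmt2 and Proz differed by 73.2 and 57.96 points. The 12 genes lay, on these probes, at the bottom of the muscle arrays as well as near the top of the liver arrays. The same 12 had tissue differences between 88.6 and 97.5 points in NP+tau.

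Taken by their widest probes in the same way, the 12 genes with the largest difference towards muscle were mostly sarcomere and calcium release genes. Myh1, the fast myosin heavy chain of type 2X fibres, was 3.91, 0.960 and 1.96 in the livers and between 99.87 and 99.90 in the muscles, a difference of -97.6 ± 1.12 points (adjusted p = 7.1e-07 in limma). Trdn (triadin, of the calcium release complex) differed by -96.7 points, Smyd1 (a methyltransferase needed for sarcomere assembly) by -93.8, Ldb3 (Z-disc) by -91.8, Neb (nebulin, which spans the thin filament) by -91.0, Myom2 (M-band) by -90.1, Myh4 (the fast myosin of type 2B fibres) by -90.1 and Myot (myotilin, Z-disc) by -89.8. Trim63, a ubiquitin ligase known from muscle atrophy, differed by -92.1 points. Txlnb (-93.0 points) and Tceal7 (-90.6 points) completed the list with Mbp, the myelin basic protein of nerve sheaths, at -91.5 points on a probe that was 4.54, 7.88 and 3.68 in the livers and 95.7, 98.2 and 96.7 in the muscles. The membership of this list rests on the choice of probe. On their brightest probes Trdn differed by -43.5 points, Ldb3 by -55.4, Txlnb by -29.3, Mbp by -29.6 and Myom2 by -76.5. The choice mattered most for Smyd1, whose brightest probe did not pass the test (69.9 in liver and 70.2 in muscle, difference -0.30 ± 1.52 points, adjusted p = 0.882). Of its 5 probes tested, 3 were higher in muscle. Over all genes with 2 or more tested probes, 409 of 6301 had probes called in opposite directions.

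The 8 lists of hepatocyte functions held 220 genes, of which 203 had a probe with a single gene symbol and all 203 passed the filter on dim probes. Since a gene high in a single tissue passes that filter because of that tissue, the counts describe the lists and are not a test of them. Of the 203 genes, 187 were higher in liver, none was higher in muscle and 16 did not pass the test, against 27.8% of all genes each way. By at least 25 points, 148 were higher in liver, against 7.14% of all genes. The median difference over the 203 genes was 50.2 points, against -0.10 points over all genes tested. The lists were compiled from textbook functions of the tissues, so that their direction was known beforehand.

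Among plasma proteins and apolipoproteins, 32 of 34 genes were higher in liver, with a median of 49.7 points. Apoa2 (an apolipoprotein of high density lipoprotein) was 99.97, 99.99 and 99.99 in the livers and 42.52, 51.02 and 37.98 in the muscles. Igfbp1 (which binds insulin-like growth factors, 85.4 points), Fetub (84.2), Kng1 (kininogen, 83.7), Hpx (haem carrier, 74.3), Ambp (72.7) and Itih3 (71.5) had the largest differences. The other 2 were Igf1, at 97.0 in liver and 93.9 in muscle, and Igfals at 82.7 and 66.4 (adjusted p = 0.267 and 0.0616). Serpina6, which carries corticosteroids in plasma, was 51.6 in liver replicate 1 and 98.6 and 98.8 in the other livers, against 10.8 to 24.0 in the muscles. All 35 genes of complement and coagulation were higher in liver, with a median of 59.6 points. They included the 3 fibrinogen chains Fga (83.7 points), Fgb (73.8) and Fgg (67.5), prothrombin (F2, 58.7), the clotting factor gene F9 (78.2), protein C (Proc, 79.0), the mannose binding lectin gene Mbl2 (85.6) and C4bp (79.9). The smallest difference of the list was C1s1 at 10.7 points, a complement protease gene that stood at 84.2 in muscle. Masp1 was 29.4 points higher in liver on its brightest probe. Another of its probes was higher in muscle (-22.5 points), while its remaining probes were higher in liver.

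Of the 22 liver transcription factors and nuclear receptors, 18 were higher in liver and the median was 31.1 points. Hnf4a, which keeps hepatocytes differentiated, was 98.4, 98.0 and 98.4 in the livers and 55.4, 58.0 and 56.5 in the muscles, a difference of 41.7 ± 1.07 points (adjusted p = 4.9e-06 in limma). Onecut2 (83.7 points), the 3 forkhead genes Foxa3 (75.0), Foxa1 (63.3) and Foxa2 (58.4), and the receptors for foreign compounds Nr1i3 (62.5) and Nr1i2 (62.4) had mean ranks of 10.2 to 31.2 in muscle. Cebpa and Ppara, which stood at 81.6 and 81.1 in muscle, differed by 14.3 and 16.7 points. Mlxipl, Esr1, Xbp1 and Srebf1 did not pass the test, with differences of 0.99, 1.18, 1.98 and 4.64 points.

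All 8 urea cycle genes were higher in liver, with a median of 58.3 points. Cps1, which starts the cycle in mitochondria, was 99.96, 99.95 and 99.93 in the livers and 20.2, 32.7 and 20.0 in the muscles. Otc was 96.8, 99.0 and 99.3 against 4.51, 8.20 and 3.02, and Arg1, which releases the urea, was 99.9 in every liver against 15.03, 18.48 and 19.41. The smallest of the 8 differences was that of the ornithine carrier gene Slc25a15 (16.9 points), which was at 81.2 in muscle. Of 31 genes of amino acid catabolism, 29 were higher in liver (median 44.8 points). Aass (lysine breakdown, 86.5 points), Amdhd1 (histidine, 84.9), Mat1a (methionine, 83.9), Tdo2 and Kmo (tryptophan, 81.2 and 76.9) led the list together with Otc. Oat, which makes glutamate from ornithine, was at 98.5 in liver and 98.6 in muscle, and Qdpr at 99.5 and 97.5. Cdo1 and Csad, the enzymes that make taurine from cysteine, differed by 14.9 and 24.3 points.

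For glucose handling, 14 of 17 genes were higher in liver with a median of 26.2 points. G6pc, the phosphatase that lets glucose leave the cell, was 94.7, 98.7 and 98.4 in the livers and 11.7, 16.1 and 3.71 in the muscles (86.8 ± 3.35 points, adjusted p = 1.9e-05 in limma). The glucose carrier gene Slc2a2 (84.7 points), glycogen synthase 2 (Gys2, 80.3) and fructose-1,6-bisphosphatase 1 (Fbp1, 69.8) followed. Pck1, the rate-setting enzyme of gluconeogenesis, differed by 28.3 points and stood at 70.6 in muscle. Got1, Slc37a4 and Ppp1r3c did not pass the test, with differences of 0.76, 3.71 and -7.12 points.

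Bile acid genes were higher in liver in 23 of 24 cases, with a median of 43.0 points. The remaining gene was Scp2, a carrier of sterols, with 2.56 points. The export pumps Abcc2 (89.9 points), Abcg5 (73.6) and Abcb11 (70.1), the uptake carriers Slco1b2 (83.6) and Slc10a1 (71.3) and the enzymes Akr1c6 (77.7) and Slc27a5 (77.0) showed the widest differences. Cyp7a1, the rate-limiting enzyme of bile acid synthesis, was 51.2, 89.3 and 97.6 in the livers and 22.6, 15.2 and 15.2 in the muscles. Liver replicate 1 was the lowest of the livers for Cyp7a1 as for Serpina6, and still above every muscle. Among xenobiotic enzymes 29 of 33 genes were higher in liver with a median of 63.7 points. Cyp2c37, Cyp3a25, Ugt2b5, Cyp3a13, Cyp3a11 and the sulfotransferase gene Sult1d1 differed by 92.3 to 97.4 points. At the other end, Gstp1 (99.8 in liver and 98.7 in muscle), Aldh1a1 (98.4 and 97.1), Nat8 (54.3 and 49.5) and Aox1 (90.7 and 84.4) did not pass the test.

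**Figure D3:**
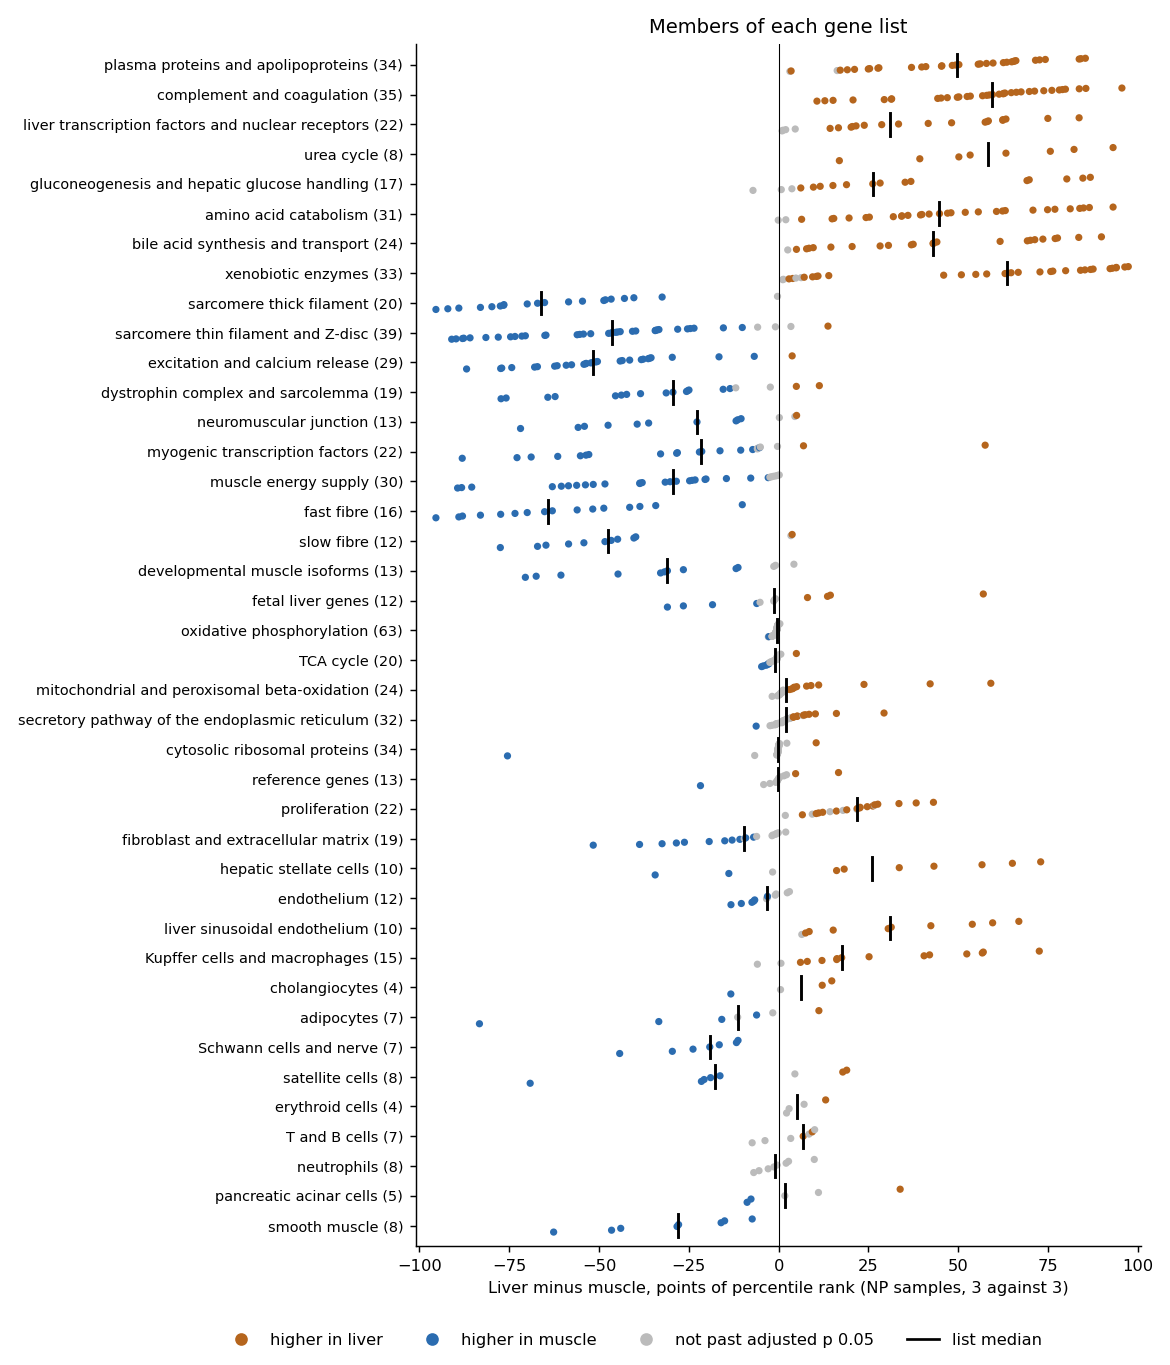
Liver minus muscle in points of percentile rank (x axis, NP samples, 3 against 3) for the tested members of each gene list (y axis, number tested in brackets). Each point is a gene by its brightest probe, coloured by whether it was higher in liver, higher in muscle or not past an adjusted p of 0.05, and the black bar is the list median. The 8 liver lists have medians from 26.2 to 63.7, the sarcomere and fibre lists from -46.3 to -66.1, and the lists of oxidative phosphorylation and ribosomal proteins sit at -0.56 and -0.14.

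The lists of muscle fibre functions held 182 genes, of which 174 had a probe with a single symbol and 171 were tested. Of these, 147 were higher in muscle, 7 were higher in liver and 17 did not pass the test, against 27.8% of all genes each way. The median was -42.9 points. By at least 25 points 120 were higher in muscle, against 5.86% of all genes. The 3 that were not tested were Myf5, Colq and Ppp1r3a, whose brightest probes were at 39.7, 38.4 and 33.5 in muscle.

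The sarcomere filled the very top of the muscle arrays. Of 20 thick filament genes 19 were higher in muscle, with a median of -66.1 points, and the remaining gene was Smyd1 on the probe given above. Ttn, the giant spring protein titin, was 22.2, 18.6 and 19.6 in the livers and 99.94, 99.96 and 99.96 in the muscles. Of 39 genes of the thin filament and Z-disc, 35 were higher in muscle (median -46.3 points). Neb (-91.0), Myot (-89.8), the fast troponin gene Tnnt3 (-88.0), Lmod2 (-87.7), Klhl41 (-85.9) and Pdlim3 (-81.5) led it. Fhl3, Myoz3 and Tpm3 did not pass the test, and Pdlim5, which occurs as several splice forms, was 13.8 points higher in liver on its brightest probe while 2 of its 7 probes were higher in muscle (-34.7 and -49.4 points).

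Fast and slow fibre genes were both high in quadriceps. All 16 fast fibre genes were higher in muscle, with a median of -64.1 points, and so were 10 of 12 slow fibre genes, with a median of -47.5 points. On their brightest probes the fast myosins Myh1, Myh4 and Myh2 lay between 99.73 and 99.93 in all muscles, and Myh4 reached 99.97 on its other probe. The slow and cardiac myosin Myh7 was 99.3, 98.9 and 99.3 in the muscles and 35.02, 29.34 and 31.74 in the livers (-67.1 ± 1.63 points, adjusted p = 4.2e-06 in limma). Its partner light chain Myl2 was 99.3, 99.0 and 99.4 against 22.2, 21.5 and 21.6. Over all members, the 3 muscles had median ranks of 99.94 to 99.97 for the fast list and 97.7 to 98.6 for the slow list, and the probes of different genes do not share a scale. Atp2a2, the calcium pump of slow fibres that most other cells also use, was 3.78 points higher in liver on its brightest probe (adjusted p = 0.0194) and higher in muscle on 2 others (-8.003 and -12.63 points). The call on the brightest probe was lost without liver replicate 2, liver replicate 3 or muscle replicate 2 and with the replicate block. The slow tropomyosin gene Tpm3 also had probes called in both directions, from 11.8 to -69.7 points.

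Of 29 genes of excitation and calcium release, 28 were higher in muscle with a median of -51.7 points. Cacna1s, the voltage sensor of the transverse tubules, was 97.4, 98.1 and 98.3 in the muscles and 11.5, 8.18 and 13.5 in the livers. Casq1 (calcium storage, -77.4 points), Sln (which restrains the calcium pump, -77.1), Cmya5 (-74.3), Ryr1 (the release channel, -67.9) and Stac3 (-67.1) followed. The dystrophin complex and its neighbours in the membrane were higher in muscle in 15 of 19 cases, with a median of -29.4 points. Cavin4 (-77.3 points) and Cav3 (-62.2), of the caveolae of the muscle membrane, Sspn (sarcospan, -75.9) and Popdc3 (-64.2) were the widest. Dmd itself was 96.4, 94.6 and 94.5 in the muscles and 75.0, 80.3 and 84.0 in the livers (-15.4 points). Sgce and Sntb1, which are also made outside muscle, were 4.95 and 11.4 points higher in liver. The call of Sgce was lost in 5 of the 6 fits that left out 1 sample, and held without liver replicate 3.

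At the neuromuscular junction 10 of 13 genes were higher in muscle, with a median of -22.7 points. Ache, which breaks down acetylcholine, differed by -55.8 points and Rapsn, which clusters its receptors, by -47.5. The acetylcholine receptor subunits of the adult junction, Chrna1, Chrnb1 and Chrne, differed by -54.0, -71.8 and -36.2 points. Chrnd went the other way by 5.02 points (adjusted p = 0.0361), at 65.4 in liver and 60.3 in muscle. This call was lost under 10 of 16 alternatives, among them the replicate block and the fits without liver replicate 2, liver replicate 3, muscle replicate 2 or muscle replicate 3. Of 22 myogenic transcription factors 16 were higher in muscle (median -21.7 points). Myf6, the member of the MyoD family most abundant in mature fibres, was 96.6, 95.2 and 95.9 in the muscles and 4.73, 9.82 and 8.91 in the livers. Myod1 was 82.8, 87.6 and 86.2 against 30.9, 34.9 and 29.8, and Myog 68.8, 70.7 and 69.5 against 38.4, 38.2 and 33.9. Eya4 (-72.8 points), Eya1 (-68.9), Six4 (-61.5) and Tbx15 (-55.2) were among the widest. Prox1 was 57.5 ± 2.73 points higher in liver (adjusted p = 3.9e-05), a gene that is known from slow fibres and also from hepatocytes and stands on the liver list as well. Tead4 was 6.94 points higher in liver (adjusted p = 0.0385), near the middle of the array in both tissues. Its call was kept under 3 of 16 alternatives and was lost on joint log2 values (0.27, adjusted p = 0.109) and without any single sample other than muscle replicate 1.

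Of 30 genes of muscle energy supply 24 were higher in muscle and none in liver, with a median of -29.3 points. The phosphorylase kinase subunit gene Phkg1 (-89.4), the mitochondrial creatine kinase gene Ckmt2 (-88.2), AMP deaminase 1 (Ampd1, -85.4), Pgam2 (-63.0), Pygm (-60.5) and adenylate kinase 1 (Ak1, -58.5) had the largest differences. Mb, the oxygen store myoglobin, was at 99.3 in muscle and 51.0 in liver. The 6 genes that did not pass the test were at 95.7 or above in both tissues, namely Slc25a4, Gpd1, Cd36, Pgm1, Ldha and Lpl. Of these, Slc25a4, the ADP/ATP carrier, had a joint log2 difference of -3.23 ± 0.242 (SE, adjusted p = 3.6e-05), which ranks near 100 could not show.

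Isozyme pairs divided between the tissues in the direction that gave the forms their names wherever a form was called on its brightest probe. Of 26 pairs, the liver form was higher in liver in 15 and the muscle form was higher in muscle in 22, and both held in 12. No form was called in the opposite direction on that probe. Atp2a2, counted here as the form of liver beside Atp2a1 of fast fibres, is among the 15 and is the gene given above with 2 other probes higher in muscle. The glucose carriers were a clear case, with Slc2a2 at 98.3, 98.8 and 99.0 in the livers and 12.1, 14.4 and 15.5 in the muscles, and the insulin-responsive Slc2a4 at 67.7, 67.1 and 65.9 in the livers and 98.9, 98.3 and 98.2 in the muscles. Glycogen phosphorylase showed it for the same reaction, with the liver form Pygl 26.2 ± 2.62 points higher in liver and the muscle form Pygm higher in muscle (-60.5 ± 1.10 points, adjusted p = 1.6e-06 in limma). Gys2 and Gys1 differed by 80.3 and -24.1 points, Fbp1 and Fbp2 by 69.8 and -30.2, Fabp1 and Fabp3 by 68.9 and -56.2, and Pgam1 and Pgam2 by 20.4 and -63.0.

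In other pairs the liver form lay near the top of both tissues and the muscle form showed the wider difference. Among the cytochrome c oxidase subunits, Cox6a1 was at 99.8 in liver and 98.7 in muscle and did not pass on ranks, while its joint log2 difference was 1.77 ± 0.18 (adjusted p = 0.00018 in limma). Cox7a2 was at 99.6 and 99.7 and passed on neither scale (joint log2 -0.35, adjusted p = 0.112). Cox8a was higher in liver by 3.37 points and by 1.57 in joint log2. The muscle forms Cox6a2, Cox7a1 and Cox8b differed by -28.5, -24.8 and -53.8 points and by -7.08, -5.05 and -8.73 in joint log2. Cox8b was 99.76, 99.84 and 99.78 in the muscles and 49.9, 52.1 and 36.1 in the livers. Eef1a1 was at 99.9 in liver and 99.5 in muscle, not called on ranks and 1.08 higher in liver in joint log2 (adjusted p = 0.0069), and Eef1a2, the elongation factor of muscle and nerve, differed by -21.7 points. Among the lactate carriers Slc16a1 was at 97.6 and 95.8, with a joint log2 difference of 0.84 (adjusted p = 0.0064), and Slc16a3 differed by -38.6 points. Rpl3l, a muscle form of a ribosomal protein, was 98.3, 98.9 and 98.9 in the muscles and 16.6, 23.9 and 29.1 in the livers. Acetyl-CoA carboxylase passed in neither form, with 3.81 points for Acaca and -12.3 for Acacb (adjusted p = 0.161 and 0.0733). Eno1, Rpl3 and Cpt1b had no probe with a single gene symbol in the annotation used and were not analysed here.

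**Figure D4:**
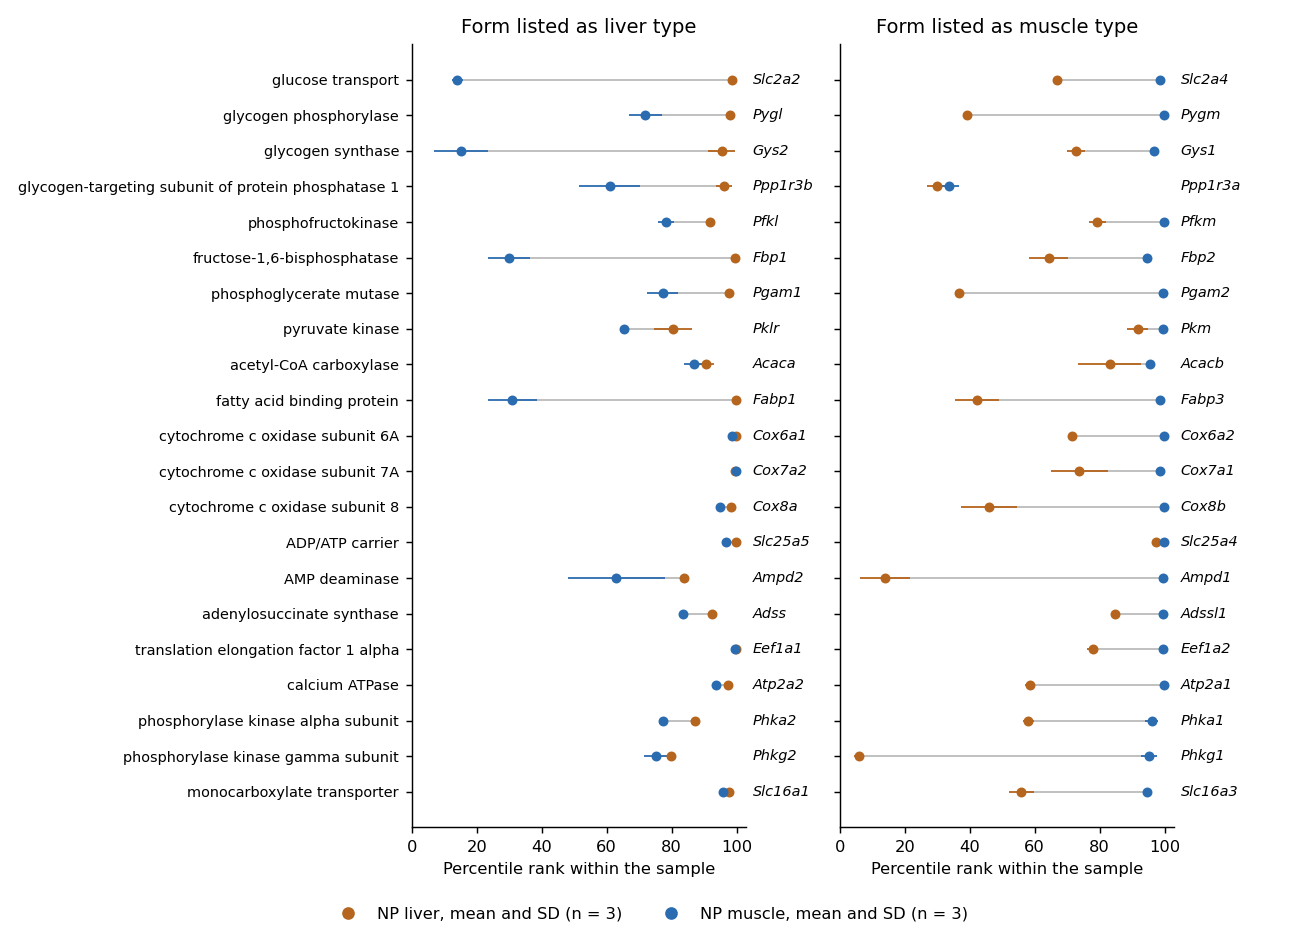
Percentile rank within the sample (x axis, 0 to 100) of the liver form (left) and the muscle form (right) of each isozyme pair with a probe for both genes. Points are means and bars the SD of 3 NP livers or 3 NP muscles. Muscle forms run from 94.5 upwards in muscle apart from Ppp1r3a, which was at 33.5 and not tested, and several liver forms such as Cox7a2 and Eef1a1 are near 100 in both tissues.

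Genes of respiration and protein synthesis that all cells use were near the top of both tissues. Of 63 oxidative phosphorylation genes, 62 did not pass the test on ranks and Ndufb3 was higher in muscle (-2.71 points), with a list median of -0.56 points. The call of Ndufb3 was lost whichever of the 6 samples was left out. The joint log2 scale gave another count, 47 of 63 higher in muscle and 1 higher in liver with a median difference of -0.76, against 30.3% and 29.2% of all genes. Atp5o, a subunit of ATP synthase, was 98.2, 98.4 and 98.2 in the livers and 99.4, 99.5 and 99.5 in the muscles, which was -1.20 points and -1.41 in joint log2 (adjusted p = 0.276 and 0.0001 in limma). In the TCA cycle, 6 of 20 genes were higher in muscle and 1 in liver by ranks, against 27.8% of all genes each way. The muscle count was near that share. By joint log2 the counts were 12 and 2. Citrate synthase (Cs) was 94.6, 94.7 and 95.1 in the livers and 99.3, 99.6 and 99.6 in the muscles, -4.72 ± 0.866 points and -3.14 in joint log2. Suclg2, the succinyl-CoA ligase subunit that forms GTP, was 4.95 points higher in liver. The TCA count by ranks was between 1 and 3 when any NP sample other than muscle replicate 1 was left out.

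Beta-oxidation leaned to the liver, with 12 of 24 genes higher there and none in muscle, against 27.8% of all genes each way. The list median was 2.17 points. The widest were peroxisomal enzymes, Acaa1b (59.1 points) and Ehhadh (42.2), and the liver form of the mitochondrial carnitine transferase, Cpt1a, at 97.4, 98.8 and 98.6 in the livers and 73.2, 75.7 and 74.5 in the muscles. The core mitochondrial enzymes Acadm, Acadl, Hadh, Hadha and Hadhb differed by 0.06 to 1.19 points and did not pass on ranks. The joint log2 counts of the list are given below. Of 32 genes of the secretory pathway in the endoplasmic reticulum 10 were higher in liver and Tmed10 in muscle. The share in liver was near that of all genes (27.8%), and the median was 2.07 points. The liver count was 6 without liver replicate 3 or without muscle replicate 2, and 1 at an adjusted p under 0.01, where the count for beta-oxidation was 7. The call of Tmed10 was lost without liver replicate 2, liver replicate 3, muscle replicate 2 or muscle replicate 3. Pdia4, a folding enzyme of secreted proteins, differed by 29.4 points, and the vesicle coat genes Sec24d and Sec23b by 16.1 and 10.2. The joint log2 scale gave 18 and 5 for the secretory list and 18 and 0 for beta-oxidation, against 29.2% and 30.3% of all genes. Of 54 ribosomal protein genes listed, 35 had a probe with a single symbol and 34 were tested. On ranks 32 did not pass, apart from Rpl3l and Rps6 (10.47 points higher in liver), and the list median was -0.14 points. Median ranks of the list were 99.1 or above in every sample. By joint log2, 1 ribosomal protein gene was higher in liver and 6 in muscle. Of 13 genes often used as references, Gusb (16.7 points) and Hprt (4.74) were higher in liver and Eef1a2 in muscle, while Actb was at 99.9 and 99.8.

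Some genes known from early life differed between the tissues at 4 weeks. Afp, the albumin of the fetal liver, was 99.0, 94.9 and 85.0 in the livers and 33.3, 40.9 and 33.7 in the muscles, a difference of 57.0 ± 4.14 points (adjusted p = 0.00018 in limma). Of 12 fetal liver genes tested 4 were higher in liver and 4 in muscle, counts near the background of all genes (27.8% each way), and the list median was -1.27 points. Besides Afp these were Gpc3 (14.4 points), the embryonic globin Hbb-y (13.6) and Igf2bp3 (8.06) in liver. The imprinted genes Igf2, Dlk1, Meg3 and Plagl1 were the 4 higher in muscle. Igf2, a fetal growth factor, was 99.6, 99.5 and 99.0 in the muscles and 74.8, 74.1 and 69.8 in the livers (-26.5 ± 1.58 points, joint log2 -6.07). Meg3 was at 99.7 in muscle and 81.3 in liver. The list of developmental muscle isoforms also holds genes that are not isoforms, such as Igf2 and Dlk1, which are on the fetal liver list too. Of its 13 genes tested 10 were higher in muscle, against 27.8% of all genes, with a median of -30.9 points. The embryonic myosin Myh3 was 89.4, 69.1 and 80.2 in the muscles and 11.6, 12.6 and 12.1 in the livers, and the perinatal myosin Myh8 was 83.7, 78.5 and 75.7 against 20.8, 16.6 and 18.7. Levels of different probes do not share a scale, so that the isoforms cannot be ranked against each other. Actc1, the cardiac actin of immature fibres, was 95.1, 99.9 and 99.8 in the muscles. The fetal acetylcholine receptor subunit gene Chrng was at 51.6 in muscle, near the middle of the array, against 39.8 in liver. Its call towards muscle was lost without liver replicate 1, liver replicate 2 or any single muscle replicate.

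Genes of cell division were higher in the livers. Of 22 proliferation genes tested, 16 were higher in liver and none in muscle, against 27.8% of all genes each way. The median was 21.8 points, though Pcna, Mki67, Top2a, Aurka, Rrm2 and Ube2c did not pass. Without muscle replicate 1 the count was 9, and at an adjusted p under 0.01 it was 7. The widest was the mitotic cyclin gene Ccnb2, at 88.4, 79.9 and 81.5 in the livers and 49.2, 10.9 and 60.3 in the muscles (43.1 points). The call of Ccnb2 was lost without liver replicate 1, 2 or 3, without muscle replicate 1, and at an adjusted p under 0.01. Aurkb, a kinase of mitosis, was 65.6, 46.2 and 54.2 in the livers and 12.03, 12.74 and 26.30 in the muscles. The list median over its members was 86.4, 75.1 and 76.0 in the 3 livers and 56.1, 48.5 and 64.8 in the 3 muscles. Liver replicate 1, with the highest median, was also the liver with the highest Afp and the lowest Cyp7a1 and Serpina6. Whether these values belong together was not tested.

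Markers of the other cell types of each tissue separated as well. The counts below stand against 27.8% of all genes called in each direction. Kupffer cells, macrophages that live in the sinusoids, were represented by Clec4f at 93.5, 94.1 and 95.5 in the livers and 51.0, 56.4 and 49.6 in the muscles, and by Vsig4, Marco, Cd5l and Timd4 with differences of 72.6, 57.0, 56.7 and 52.4 points. In all, 13 of 15 macrophage genes were higher in liver, and Lyz2 and Cd163 did not pass. Of 10 genes of the liver sinusoidal endothelium 9 were higher in liver (median 30.9 points), led by Clec4g (66.9) and Oit3 (59.6). Of 12 general endothelial genes 6 were higher in muscle and none in liver, with Pecam1 at 79.6, 82.7 and 76.3 in the livers and 92.1, 88.3 and 89.3 in the muscles. Among these calls, that of Egfl7 was lost under 10 of 16 alternatives and that of Flt1 under 9, most of them fits that left out 1 sample. Stellate cell genes were higher in liver in 7 of 10 cases, with Colec10 (73.0) and Lrat (65.1), the enzyme that stores vitamin A, in front, while Des and Pdgfrb, which muscle fibres and pericytes also make, were higher in muscle. Of 4 cholangiocyte genes tested Krt19 and Sox9 were higher in liver and Epcam in muscle, all with mean ranks of 66.3 or below.

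Muscle samples held signal from fat, nerve, vessels and connective tissue. Here too the background was 27.8% of all genes called in each direction. Adipoq, a hormone made by fat cells, was 97.0, 97.0 and 95.5 in the muscles and 12.5, 14.0 and 13.2 in the livers (-83.3 ± 1.03 points, adjusted p = 7.1e-07 in limma). Of 7 adipocyte genes tested 4 were higher in muscle, and Pparg was 11.2 points higher in liver. All 7 Schwann cell and nerve genes tested were higher in muscle (median -19.2 points), which is the setting of the Mbp value above, and all 8 smooth muscle genes tested were too (median -28.1 points), with Myh11 at -62.6. Of 19 genes of fibroblasts and matrix 11 were higher in muscle, with Dpt (-51.6), Thy1 (-38.7) and Mgp (-32.4) the widest. Of 8 satellite cell genes tested 5 were higher in muscle, with Chodl at -69.2, and Fgfr4 and Vcam1, which other cells make as well, were higher in liver. The share of any of these cells in the tissue differences was not tested.

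For neutrophils the spread between mice was wide. No neutrophil gene of 8 was called in either direction, since S100a8 was 99.5, 91.4 and 91.2 in the livers and 98.1, 78.3 and 99.3 in the muscles, and Lcn2 was 98.5, 72.2 and 81.4 against 85.0, 45.2 and 92.1. Muscle replicate 2 was the lowest of the muscles, and liver replicate 1 the highest of the livers, for both genes and for the list median, which ran from 72.9 to 94.7 in liver and from 63.9 to 96.5 in muscle. Of 4 erythroid genes tested Klf1 was higher in liver, a call lost without liver replicate 1, liver replicate 3, muscle replicate 2 or muscle replicate 3. Of 7 T and B cell genes tested Cd8a and Cd22 were higher in liver, a share near that of all genes (27.8%). All 7 had mean ranks of 66.4 or below in both tissues. Of 5 pancreatic acinar genes tested, a check for tissue picked up at dissection, Cela1 was 33.9 points higher in liver and Prss2 and Ctrb1 were higher in muscle (-8.76 and -7.68 points). The calls of these 2 were lost without liver replicate 1, liver replicate 3 or muscle replicate 1, that of Prss2 also without muscle replicate 3 and that of Ctrb1 also without muscle replicate 2. The highest of the others in liver was Cela3b at 67.3.

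Ranks of hepatocyte genes in the muscle samples were described by the whole list of plasma proteins. No call of presence was used, so a rank near the middle of the array was not told apart from background. The median over its 34 members with a probe was 99.6 to 99.7 in the livers and 51.0, 50.8 and 44.9 in the muscles. Alb, Rbp4, Apoc1 and Hp were among those above the middle of every muscle array, at mean ranks of 74.6, 72.3, 74.9 and 80.8, and Ambp, Hpx and Fga were at 27.2, 25.7 and 16.2. Muscle replicate 2 had the highest Alb (87.8) but not the highest Apoc1 (84.3 in replicate 1) or Apoa1 (62.1 in replicate 1). In the livers, the fast fibre list had medians of 37.7, 33.8 and 35.6. Whether transcripts from the other tissue had a part in these values or in the tissue differences was not tested.

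The same tissue contrast was available in the offspring of taurine-supplemented dams, which share no sample with the NP contrast. There, 6082 probes (20.8%) were higher in liver and 6131 (20.9%) in muscle. Of the NP probes called by at least 25 points, 85.3% of those higher in liver and 92.8% of those higher in muscle were called in the same direction in NP+tau. Of all probes called in NP the shares were 65.0% and 62.1%, and of those called in NP+tau 84.7% and 87.3% were also called in NP. In each direction 1 probe was called the other way. In NP+tau 190 of the 203 liver list genes were higher in liver and none in muscle, with a median of 52.7 points beside 50.2 in NP. Of the 171 muscle list genes 146 were higher in muscle and 4 in liver, with a median of -39.1 points beside -42.9.

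**Figure D5:**
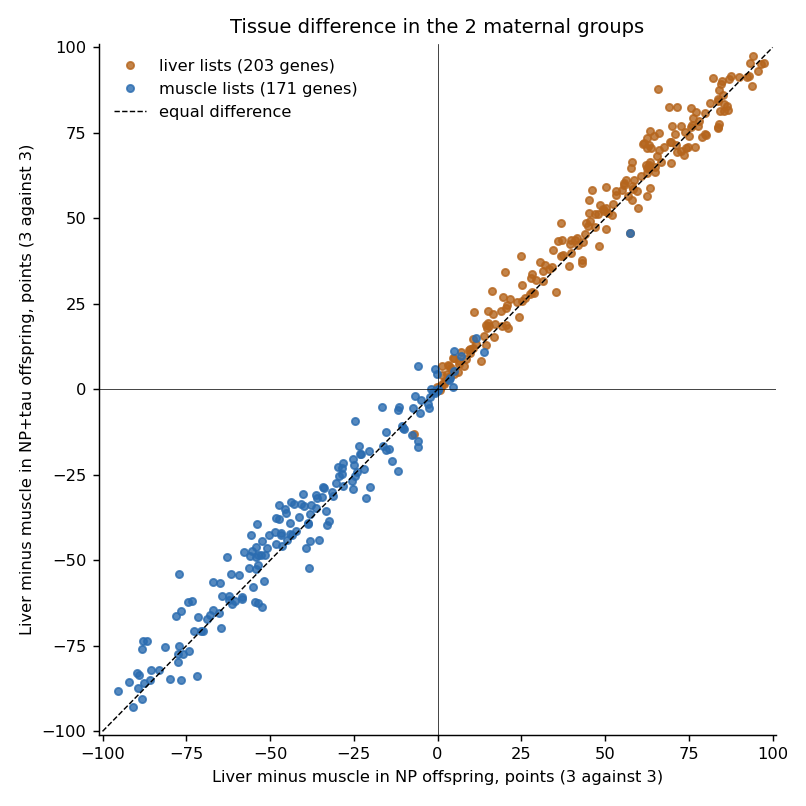
Liver minus muscle in points of percentile rank in NP offspring (x axis) against the same difference in NP+tau offspring (y axis), each 3 samples against 3. Points are the 203 genes of the liver lists and the 171 genes of the muscle lists, and the dashed line marks equal differences. Genes with large differences in NP had large differences in the same direction in NP+tau.

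Whether the tissue difference itself differed between the maternal groups was tested as an interaction over all 12 samples. No probe of 29276 passed (0.0%), the smallest adjusted p in limma was 0.617, and 2289 probes (7.82%) had an unadjusted p under 0.05. The median SE of this difference of differences was 4.06 points, which limits what the design can show. Among the list genes, 21 of 203 liver genes and 14 of 171 muscle genes had an unadjusted p under 0.05. Of the single genes, picked after their values were seen, Trdn had tissue differences of -96.7 points in NP and -80.3 in NP+tau on its widest probe, and Sln had -77.1 and -53.9 points. Cyp2e1 had 10.98 and 22.62 points. None of these 3 passed the interaction test.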

How the data were processed

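RNA of 6 NP and 6 NP+tau samples was hybridised to Affymetrix arrays. The deposited log2 values were made by the authors with RMA (justRMA in Bioconductor), with quantile normalisation of each tissue separately, so levels cannot be compared between tissues before re-scaling, and within-sample ranks were used. Symbols came from GEO's platform annotation: 34945 probes had 1 symbol, 932 several and 9160 none, and 34741 matched RefSeq by gene ID. Probes were kept if their highest NP rank reached the 35th percentile of these ranks. Percentile ranks were fitted in limma 3.58.1 (lmFit, then eBayes, R 4.3.3) and adjusted by Benjamini-Hochberg. The fit was tested on simulated data. Named are the 4 markers, the 12 widest non-overlapping genes a direction, isozymes and, from each list, the 6 widest members and those called against it, with other members added after their values were seen. The members, lists and alternatives (scale, filter, variance model, threshold, replicate block and left-out samples) were chosen with earlier results of these data known. Promoters are RefSeq's. Tables were made with pandas 2.3.3 and figures with matplotlib 3.10.9.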

Additional observations from a re-analysis of the deposited data

How the results depend on the processing

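Probe counts called in either tissue, in NP and NP+tau, and the counts over the liver and muscle lists stayed within 1.5 times of those reported under the alternatives of scale, filter, variance model, threshold and replicate block, apart from the following. With a log2 difference of at least 1 in place of 25 points, 4534 probes were higher in liver and 4785 in muscle on jointly normalised log2 values, 3996 and 5655 on deposited log2 values, and 4916 and 4401 on array-centred log2 values. That rule is another measure of size, so the counts differ by construction. The median shift over all probes was -0.19 on the deposited log2 values, -0.04 after joint normalisation and 0.03 after centring. At an adjusted p under 0.01, 3547 probes were higher in NP+tau liver and 3409 in NP+tau muscle, and on deposited log2 values 9328 were higher in NP+tau muscle, for which the cause was not tested. Leaving out 1 sample at a time gave 6594 to 7525 probes for NP liver, 7076 to 8147 for NP muscle, 4586 to 6853 for NP+tau liver and 4165 to 7303 for NP+tau muscle. For the difference between NP+tau and NP it gave 0 to 2 probes, with 2 only without liver NP+tau replicate 3. The replicate numbers were not treated as pairs, since the labels do not say that a number marks an animal. In NP, deviations of same-numbered liver and muscle samples correlated at -0.002, 0.168 and -0.017, and those of different numbers at -0.193 to 0.158. With the replicate block 7177 and 7813 probes were called in NP, and 5652 and 5424 in NP+tau. The same-numbered correlations in NP+tau were 0.226, 0.152 and 0.271, and those of different numbers ran from -0.225 to -0.031. Apparent sex also matched by number between the NP+tau tissues, and whether the numbers mark animals was not tested. Of 1184 alternatives over 74 single genes, 1116 kept their side of the threshold, 31 lost the call, 37 gained it and none reversed. These 74 do not cover all members named from the gene lists, some of which were less stable. Tead4 lost its call under 12 of 16 alternatives, and Chrnd and Egfl7 under 10 each. The number of arrays, 3 a group, limits the precision.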
